A study of Homo sapiens with 11 samples.

Results

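Transcripts of 10 circadian clock genes were followed in 6 RNA sequencing libraries labelled as MDA-MB-231, an established human breast cancer cell line. The genes were NR1D1, NR1D2, PER1, PER2, PER3, CRY1, CRY2, BMAL1, CLOCK and DBP, chosen by name, and all 10 were found among the 37247 genes of the deposited table. The 3 Control-KD libraries carry a control knockdown in cells given as wild type, and the 3 H2AS40-KD libraries carry a knockdown of the S40 type of histone H2A, the form with a serine at residue 40. The labels give neither the knockdown reagent, nor its duration, nor a collection time, nor any step that would synchronise the cells, and do not say whether replicates were separate cultures. The other 5 samples of the series, which are chromatin immunoprecipitation and input, were not analysed here.

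The mammalian clock is a feedback loop of transcription factors. BMAL1 and CLOCK pair and activate genes through the E-box, among them the PER and CRY genes, whose proteins return to block that pair. NR1D1 and NR1D2 (REV-ERB alpha and beta) are E-box targets too, and repress BMAL1, CLOCK and NPAS2 through the ROR element (RORE), where the ROR receptors activate. DBP, another E-box target, drives genes through the D-box, where NFIL3 represses. In a running clock NR1D1 and DBP transcripts therefore peak far from BMAL1 in the cycle. Clock function is often altered in breast cancer.

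The promoters of the clock genes are shown because these elements define the arms of the loop compared below. RefSeq windows (GRCh38.p14) of 250 bases before to 50 bases after a transcription start were searched on both strands, 15 windows for the 10 genes. The letters CACGTG (E-box) occurred in 2 of the 15 windows, 1 of PER1 and 1 of NR1D2, and in 7.26% of all 35116 windows. The RORE core TAGGTCA occurred in 1 window each of BMAL1 and CRY2 and in 1.85% of all windows. With AAAG directly before the core it occurred in 1 window of BMAL1 and in 3 of all windows, and with AAC before it in 0 of the 15 and in 0.048% of all. The D-box TTATGTAA occurred in 1 window each of NR1D2 and PER3 (0.886% of all) and the palindrome TTACGTAA in that of PER2 (0.125% of all). Windows of NR1D1, CRY1, CLOCK and DBP held none of these letters, which says nothing of elements elsewhere or with other letters. Capitals mark the element in each 30-base stretch, written 5′ to 3′ on the strand of the gene:
PER1 E-box, 173 bases before the start, chr17:8152560-8152589, minus strand: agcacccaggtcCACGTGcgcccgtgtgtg
NR1D2 first E-box, 155 bases before the start, chr3:23945954-23945983, plus strand: ggcgggcggggaCACGTGaggccgctcggc
NR1D2 second E-box, 105 bases before the start, chr3:23946004-23946033, plus strand: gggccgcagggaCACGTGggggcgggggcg
NR1D2 D-box in reverse, 194 bases before the start, chr3:23945916-23945945, plus strand: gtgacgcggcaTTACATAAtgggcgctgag
PER3 D-box, 177 bases before the start, chr1:7784103-7784132, plus strand: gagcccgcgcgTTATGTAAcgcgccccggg
PER2 D-box, 3 bases before the start, chr2:238288595-238288624, minus strand: cccgctgcggcTTACGTAAccgccgccggc
BMAL1 RORE core, 31 bases after the start, chr11:13277809-13277838, plus strand: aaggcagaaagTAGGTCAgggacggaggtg

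Expression is given in transcripts per 1000000 (TPM) as deposited, a unit that divides by gene length and keeps no depth, so counting error could not be given. Control-KD replicate 3 stood apart from the other libraries on the first principal component (-31.2, against -0.784 to 12). The labels name no gene for the knockdown. H2AC25 was taken as S40-type from recollection of its protein. It had 31.3 to 33.5 TPM in Control-KD and 32.6 to 34.8 TPM in the other group, which does not show the knockdown. H2AC7, the other gene checked, did not reach 1 TPM in 3 libraries and was too low to judge. Its TPM was 0 in Control-KD replicates 1 and 2 and 2.97 in replicate 3, against 0.968, 0 and 0.256 in H2AS40-KD. The H2AS40-KD libraries are therefore called by their label. Markers of the cell line's mesenchymal state were present. VIM was at 2247 to 2281 TPM with overlapping groups. CD44 was at 353 to 365 TPM in Control-KD and 296 to 322 TPM in H2AS40-KD (limma adjusted p = 0.0543), and EGFR at 45.4 to 49.7 and 42.5 to 43.7 TPM (limma adjusted p = 0.264), both without overlap. Of these 3 markers limma called 0, and 2 had an unadjusted p under 0.05, against 16.5% of all tested genes. The groups did not overlap for 2 of the 3, against 24.2% of all tested genes. Luminal markers other than PGR were present too, although MDA-MB-231 is known as a line without oestrogen receptor. ESR1, that receptor, was at 12.3 to 21.2 TPM with overlapping groups. GATA3 lay at 436 to 459 TPM in H2AS40-KD, below its 460.4 to 471 TPM in Control-KD. EPCAM lay at 168 to 174 TPM in H2AS40-KD, above its 163 to 166 TPM in Control-KD. TFF1, an oestrogen-induced gene, was added after its values were seen. FOXA1, CDH1 and ZEB1 were added likewise. They were at 75.2 to 94.0, 56.8 to 64.8 and 29.0 to 31.9 TPM, each with overlapping groups. TFF1 lay at 922 to 956 TPM in H2AS40-KD, above its 887 to 913 TPM in Control-KD. Of 6 luminal markers, limma called 0 between the groups, and 0 had an unadjusted p under 0.05. The groups did not overlap for 2 of the 6, GATA3 (lower) and EPCAM (higher), against 24.2% of all tested genes. The summed TPM of the 6 was 6491 to 6535 in Control-KD and 6395 to 6459 in H2AS40-KD. Most of it came from KRT8 (3503 to 3629 TPM) and KRT18 (2236 to 2291 TPM), so it says little of ESR1, GATA3 or EPCAM. Summed markers of blood cells (1.27 to 2.96 TPM, with CD3E at 0 in 5 libraries) and of fibroblasts (6.22 to 10.8 TPM) were low. Whether the cells are the labelled line was not tested. In bulk RNA a mixture of cells and co-expression in 1 cell cannot be told apart, nor can a change in cell share and in RNA per cell, and the part of these markers in the results below was not tested.

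The clock genes were all expressed, over a range from NR1D1 at 78.4 ± 15.8 TPM to PER2 at 9.68 ± 1.15 TPM (mean and SD over 6 libraries). CRY1 (39.3 ± 2.88 TPM), NR1D2 (37.9 ± 4.41 TPM) and PER1 (37.7 ± 3.11 TPM) followed NR1D1, and the ranges of neighbours among these 3 overlapped. DBP (19.8 ± 4.33 TPM) overlapped CLOCK (18.6 ± 1.58 TPM), and PER3 (14.2 ± 1.08 TPM), BMAL1 (10.6 ± 1.70 TPM), CRY2 (10.4 ± 1.37 TPM) and PER2 formed the lowest run, each overlapping its neighbour. Steps without overlap lay between NR1D1 and CRY1, between PER1 and DBP, and between CLOCK and PER3. PER1 supplied 57.8 to 63.4% of the TPM of the PER genes, and CRY1 76.1 to 81.0% of the TPM of the CRY genes.

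Most clock genes had higher TPM in H2AS40-KD than in Control-KD, with the largest log2 fold changes for NR1D1, DBP, BMAL1 and NR1D2, in that order. The median log2 fold change of the 10 genes was 0.19, 8 being positive, where the median of 14160 tested genes was 0.01 with 7515 positive. The groups did not overlap for 7 of the 10, 6 of them higher and 1 lower, where 24.2% of tested genes did not overlap (12.9% higher and 11.3% lower). By limma, with p-values adjusted over the whole table by Benjamini-Hochberg, 1 of the 10 was called, NR1D1, against 1.26% of tested genes (0.516% higher and 0.742% lower). None of the negative members was called, and 0 were at an unadjusted p under 0.05. The genes were proposed with results of this contrast known, NR1D1 among them, so these values are a description and nothing is read from the counts.

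**Figure D1:**
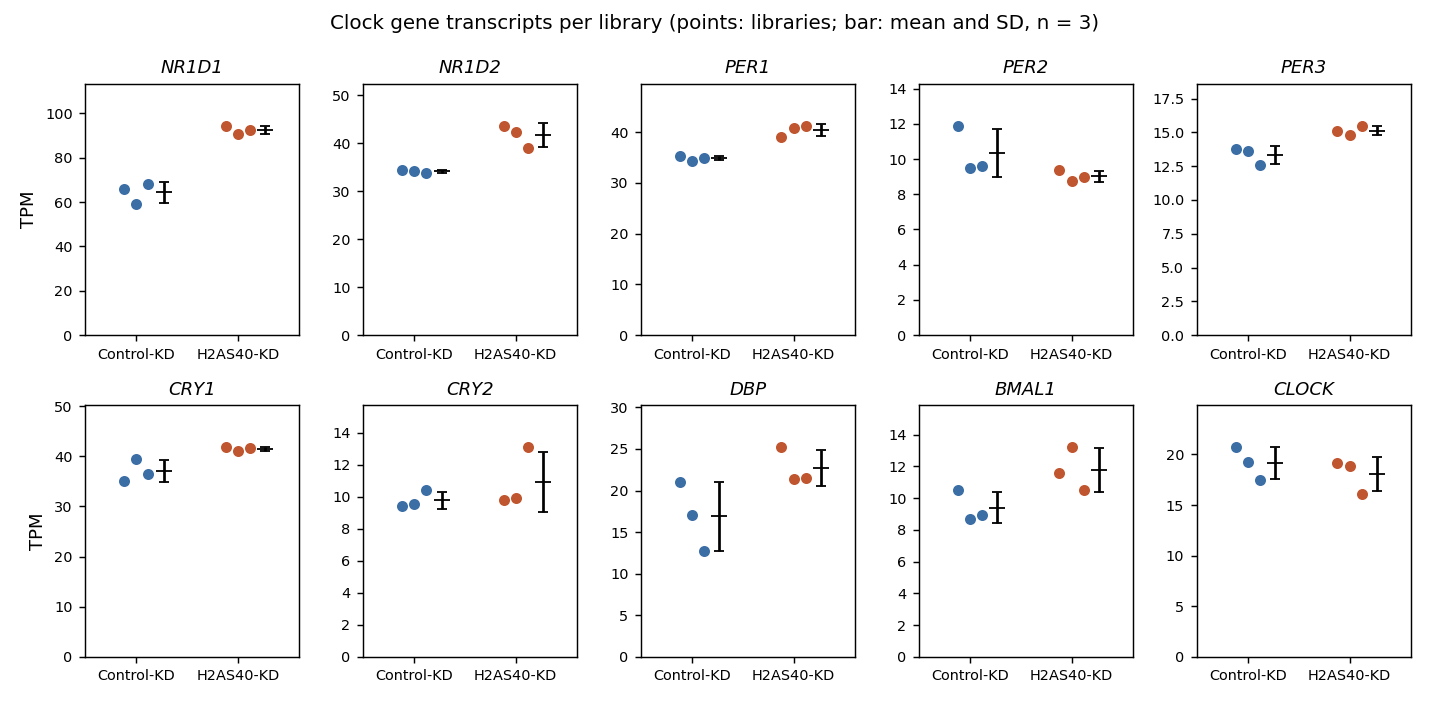
TPM of the 10 clock genes on the vertical axis of each panel, starting at 0, for 3 Control-KD libraries (blue) and 3 H2AS40-KD libraries (orange), with the mean and SD of each group in black. NR1D1 lies at 58.9 to 68.2 TPM in Control-KD and at 90.7 to 94.5 TPM in H2AS40-KD, while the groups overlap for CRY2, BMAL1 and CLOCK.

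The repressors of BMAL1 were above Control-KD in every library labelled H2AS40-KD. NR1D1 (ENSG00000126368.5), which spans 40092793 to 40100589 of chromosome 17 (GRCh38), measured 65.9, 58.9 and 68.2 TPM in the Control-KD libraries, against 94.5, 90.7 and 92.3 TPM in those of H2AS40-KD. Its lowest H2AS40-KD library was above its highest Control-KD library by 35.1% of the Control-KD mean, the widest gap of the 10 genes. The means were 64.3 ± 4.82 and 92.5 ± 1.87 TPM (SD, n = 3 each), 43.8% higher, which gives a log2 fold change of 0.52 (standard error 0.0600). The limma call ended when any 1 library other than Control-KD replicate 3 was left out, at log2 fold changes of 0.46 to 0.54, and also without an intensity trend or with the replicate number as a term. NR1D2, its paralog, which binds the same element, measured 34.5, 34.2 and 33.8 TPM in the Control-KD libraries, against 43.7, 42.4 and 39.0 TPM in those of H2AS40-KD. The groups did not overlap, and the Control-KD libraries of NR1D2 varied by 0.976% (coefficient of variation). Its log2 fold change was 0.28 with a standard error of 0.0576. Summed over the pair, the level was 98.5 ± 4.75 TPM in Control-KD and 134 ± 3.55 TPM in H2AS40-KD (SD, n = 3 each).

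The PER genes, whose products carry the CRY proteins into the nucleus as repressors, had fold changes of both signs. PER1 measured 35.3, 34.4 and 35.0 TPM in the Control-KD libraries, against 39.0, 40.8 and 41.3 TPM in those of H2AS40-KD. These groups did not overlap, with a log2 fold change of 0.20 and a standard error of 0.0488. PER3 measured 13.8, 13.6 and 12.6 TPM in the Control-KD libraries, against 15.1, 14.8 and 15.5 TPM in those of H2AS40-KD, a log2 fold change of 0.17 with a standard error of 0.0714. PER2 measured 11.9, 9.48 and 9.62 TPM in the Control-KD libraries, against 9.35, 8.76 and 8.95 TPM in those of H2AS40-KD. Its groups were separated by 1.27% of the Control-KD mean only, and the highest value was that of Control-KD replicate 1. The log2 fold change of PER2 was -0.17 with a standard error of 0.106, and -0.07 without that library. The summed PER level was 58.6 ± 2.13 TPM and 64.5 ± 1.21 TPM (SD, n = 3 each).

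CRY1 and CRY2, the repressors that bind CLOCK and BMAL1 directly, had higher means in H2AS40-KD, CRY1 with separate groups and CRY2 not. CRY1 measured 35.1, 39.4 and 36.5 TPM in the Control-KD libraries, against 41.8, 41.1 and 41.7 TPM in those of H2AS40-KD, with no overlap and a log2 fold change of 0.17 (standard error 0.0571). CRY2 measured 9.40, 9.57 and 10.4 TPM in the Control-KD libraries, against 9.80, 9.92 and 13.1 TPM in those of H2AS40-KD. The groups of CRY2 overlapped, and the high value came from H2AS40-KD replicate 3 alone. Its log2 fold change was 0.13 (standard error 0.123), and 0.01 without that library.

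BMAL1 (also ARNTL), the partner of CLOCK and the main RORE target of the loop, measured 10.5, 8.69 and 8.96 TPM in the Control-KD libraries, against 11.6, 13.2 and 10.5 TPM in those of H2AS40-KD. The groups overlapped in that the lowest H2AS40-KD library was just below the highest Control-KD library, and both round to the same value. Its means were 9.37 ± 0.956 and 11.8 ± 1.39 TPM (SD, n = 3 each), which gives a log2 fold change of 0.30 (standard error 0.114). CLOCK measured 20.7, 19.2 and 17.5 TPM in the Control-KD libraries, against 19.1, 18.9 and 16.1 TPM in those of H2AS40-KD. The groups overlapped between 17.5 and 19.1 TPM, with a log2 fold change of -0.08 (standard error 0.0945).

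DBP, an output factor of the PAR bZIP family, varied more between Control-KD libraries than any other member, at a coefficient of variation of 24.5%. It measured 21.0, 17.0 and 12.7 TPM in the Control-KD libraries, against 25.2, 21.4 and 21.5 TPM in those of H2AS40-KD. The lowest value was that of Control-KD replicate 3, the library that stood apart, and the groups were separated by 2.43% of the Control-KD mean. Its log2 fold change was 0.43 with a standard error of 0.168, and 0.25 without that library.

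**Figure D2:**
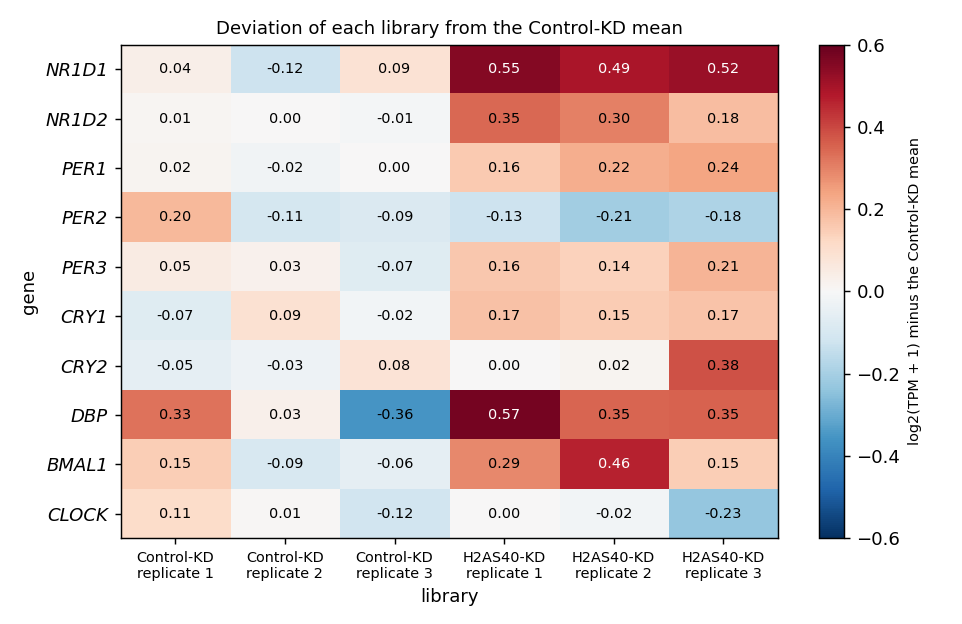
Deviation of log2(TPM + 1) from the Control-KD mean, by gene (vertical axis) and library (horizontal axis), with the value printed in each cell and red for higher. In all 3 H2AS40-KD libraries 7 of the 10 genes are above the Control-KD mean, and PER2 is below it in all 3.

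The deviation of each library from the Control-KD mean shows how even the pattern was among replicates. Of the 10 genes 7 were above that mean in all 3 H2AS40-KD libraries, PER2 was below it in all 3, and CRY2 and CLOCK were at 0.00 in replicate 1, with CRY2 above and CLOCK below the mean in the other libraries. The median deviations of these libraries were 0.17, 0.19 and 0.20 on the log2(TPM + 1) scale. Among the Control-KD libraries 8, 4 and 3 genes were above it, with medians of 0.04, -0.01 and -0.04. Control-KD replicate 1 was above in the same number of genes as each H2AS40-KD library (8), with PER2 and CLOCK further above the mean than in any of those.

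Whether the directions are those of a shifted phase was asked by setting the E-box arm against the RORE arm. NR1D1, DBP and also BMAL1, which peaks apart from those 2 in a running clock, were above the Control-KD mean in each H2AS40-KD library. The log2 level of NR1D1 minus that of BMAL1 was 2.54, 2.63 and 2.80 in Control-KD and 2.92, 2.69 and 3.03 in H2AS40-KD. These overlapped, with a difference of means of 0.22, where the SD was 0.128 and 0.172. For DBP minus BMAL1 the values were 0.94, 0.89 and 0.46 in Control-KD and 1.05, 0.66 and 0.97 in H2AS40-KD, and these overlapped too. Of the E-box targets among the 10, PER2 alone had a negative log2 fold change, and NR1D1, NR1D2, PER1, PER3, CRY1, CRY2 and DBP were positive. PER2 was not called (limma adjusted p = 0.476), and its fold change was -0.07 without Control-KD replicate 1. With 1 unlabelled time point per library, a shift in phase and a change in level cannot be told apart.

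Of 9 tested other transcription factors of the loops limma called 0. HLF, a relative of DBP, went from a mean of 0.640 to 1.44 TPM and passed the filter of 1 TPM in 3 libraries through the H2AS40-KD libraries alone, so it had to differ and is left out of the next counts. Of the other 8, 2 had an unadjusted p under 0.05, against 16.5% of all tested genes, and 5 were positive, with a median log2 fold change of 0.10. CIART, an E-box-driven repressor of CLOCK and BMAL1 whose promoter window held 3 E-boxes, measured 29.8, 26.4 and 30.2 TPM in the Control-KD libraries, against 33.7, 36.1 and 34.7 TPM in those of H2AS40-KD. It had the smallest p of this list, a log2 fold change of 0.27 (limma adjusted p = 0.128). BHLHE40, another E-box repressor, had means of 48.3 and 54.7 TPM. Of the RORE targets, NFIL3 had 24.8 ± 1.07 and 27.2 ± 0.843 TPM, and NPAS2, which can stand in for CLOCK, had 33.3 ± 5.04 and 26.9 ± 4.64 TPM (SD, n = 3 each). The RORE targets were thus divided in sign, with BMAL1 and NFIL3 positive and CLOCK and NPAS2 negative, and only values are given since none was called. RORA, an activator at the same element, was at 1.45 to 3.25 TPM, and its relative RORB was below the filter.

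**Figure D3:**
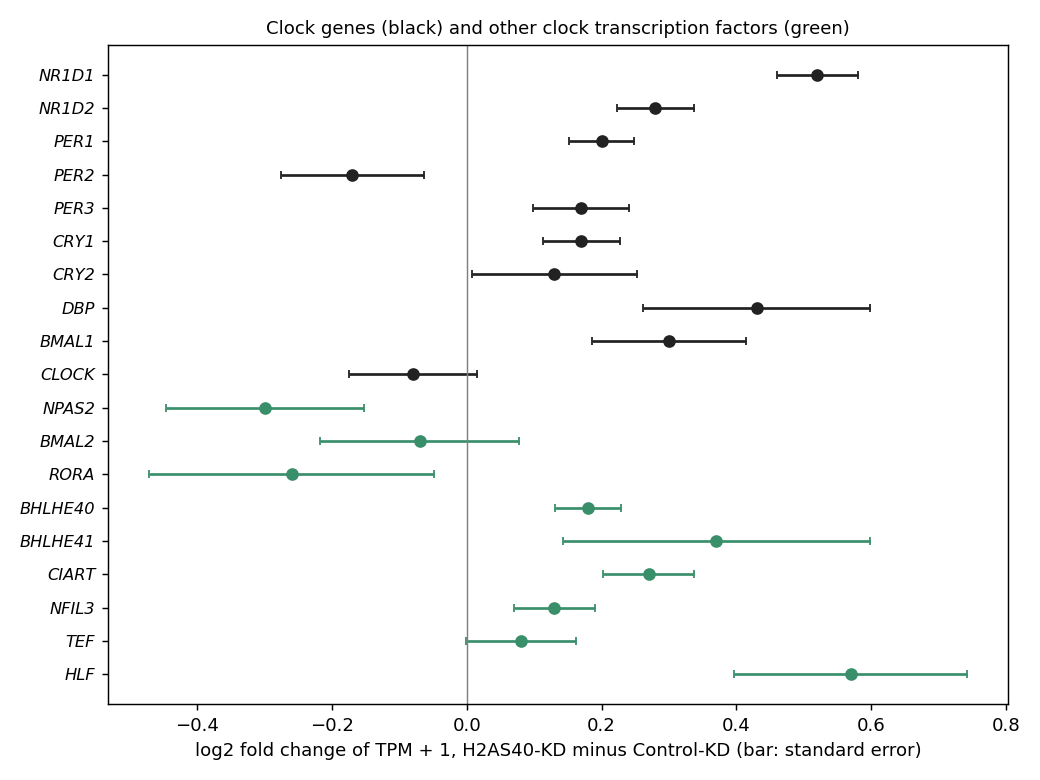
Log2 fold change of TPM + 1, H2AS40-KD minus Control-KD, on the horizontal axis with its standard error, for the 10 clock genes (black) and 9 other clock transcription factors (green). Values run from -0.30 for NPAS2 to 0.57 for HLF, which passed the filter through the H2AS40-KD libraries alone, and NR1D1 at 0.52 is the 1 gene shown that limma called.

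Enzymes and cofactors that act on clock proteins were examined next, and limma called 0 of 24 tested. Of these, 6 had an unadjusted p under 0.05, where 16.5% of all tested genes had, with a median log2 fold change of 0.04. SIRT1, a deacetylase that binds CLOCK, had the smallest p. It measured 29.4, 31.0 and 28.1 TPM in the Control-KD libraries, against 34.8, 37.4 and 34.0 TPM in those of H2AS40-KD, without overlap, at a log2 fold change of 0.26 (limma adjusted p = 0.122). CSNK1D and CSNK1E, the casein kinases that mark PER proteins for turnover, had means of 163 and 181 TPM and of 88.4 and 102 TPM. NCOR1, the corepressor that NR1D1 recruits, had 88.3 ± 3.33 and 80.9 ± 4.45 TPM, and its partner HDAC3 53.1 ± 1.41 and 53.6 ± 0.665 TPM (SD, n = 3 each). These pairs of means are given as values, none having passed.

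Of 9 tested output genes of the clock, 1 rose and 0 fell by limma, where 0.516% of all tested genes rose and 0.742% fell. An unadjusted p under 0.05 was reached by 7, and by 16.5% of all tested genes, with a median log2 fold change of 0.12. Of the 9, 6 were positive and 3 negative, where 53.1% of all tested genes were positive. PPARA, 1 of those 7, was negative without overlap, at a log2 fold change of -0.48 (limma adjusted p = 0.247). KLF10, a zinc finger factor controlled by the clock in mouse liver, measured 96.8, 91.1 and 95.4 TPM in the Control-KD libraries, against 139, 143 and 142 TPM in those of H2AS40-KD. The groups were far apart, with a log2 fold change of 0.58, a standard error of 0.0379 and a limma adjusted p of 0.00399. This call held without each library in turn and ended with the replicate number as a term (limma adjusted p = 0.0706, in a range of 0.00285 to 0.0706 over 16 alternatives). NOCT (nocturnin), a rhythmic gene in many tissues, had 33.9 and 42.5 TPM, and WEE1, a mitotic kinase under E-box control in mouse liver, had 23.6 and 22.5 TPM.

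Genes of the signals that reset clocks, by serum, cAMP or glucocorticoid, were counted because PER1 responds to the same signals. Of 13 tested, 1 rose and 0 fell by limma, where 0.516% of all tested genes rose and 0.742% fell. An unadjusted p under 0.05 was reached by 5, and by 16.5% of all tested genes, with a median log2 fold change of 0.13. EGR1, an immediate-early factor, measured 44.2, 44.9 and 43.2 TPM in the Control-KD libraries, against 55.3, 56.1 and 58.4 TPM in those of H2AS40-KD. Its groups did not overlap, at a log2 fold change of 0.35 with a standard error of 0.0455 (limma adjusted p = 0.0223). Its call ended under the same alternatives as that of NR1D1, with limma adjusted p-values of 0.0173 to 0.133 over all 16. FOS, another, had 13.7 ± 0.905 and 19.0 ± 0.728 TPM (SD, n = 3 each), at a limma adjusted p of 0.0502. Of the 13 genes 11 were positive and 2 negative, where 53.1% of all tested genes were positive. The glucocorticoid-induced FKBP5 had means of 40.5 and 43.3 TPM. SIK1, which the cAMP pathway induces, was negative, at 5.71 ± 2.96 and 3.60 ± 0.889 TPM (SD, n = 3 each). Its groups overlapped, and its highest value, 9.07 TPM, was that of Control-KD replicate 3, the library that stood apart. The groups did not overlap for 7 of the 13, against 24.2% of all tested genes. Among those 7, NR4A1, DUSP1 and TSC22D3 were positive, at log2 fold changes of 0.51, 0.35 and 0.13. The gene lists were chosen with earlier results of these data known, so nothing is read from their counts. FKBP5, SIK1, NR4A1, DUSP1 and TSC22D3 were not called.

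Heme is the ligand of NR1D1 and NR1D2, and limma called 0 of 11 tested genes of its synthesis and breakdown. Of these, 3 had an unadjusted p under 0.05 (16.5% of all tested genes), with a median log2 fold change of 0.02. BLVRB, a biliverdin reductase, had the smallest p, with 152 ± 3.76 TPM in Control-KD and 176 ± 6.07 TPM in H2AS40-KD (SD, n = 3 each, limma adjusted p = 0.0664). ALAS1, the first enzyme of heme synthesis, had 54.9 ± 3.74 and 55.7 ± 2.06 TPM (SD, n = 3 each).

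Several clock genes overlap a gene on the other strand, and the labels do not say whether reads kept their strand, so reads in the shared bases cannot be assigned with certainty. NR1D1 shares 1075 bases with THRA, a thyroid hormone receptor gene. THRA ranged from 6.83 to 8.46 TPM in Control-KD and from 6.77 to 7.32 TPM in H2AS40-KD, with overlapping groups, at a log2 fold change of -0.06 (limma adjusted p = 0.829) and 0.03 without Control-KD replicate 1. NR1D2 shares 1277 bases with NKIRAS1, which had 23.8 ± 0.491 and 24.8 ± 1.08 TPM (SD, n = 3 each, limma adjusted p = 0.704). For these pairs the clock gene was the more abundant, and the groups of the other gene overlapped. DBP shares 376 bases with SPHK2, a sphingosine kinase gene, which measured 20.6, 23.5 and 17.8 TPM in the Control-KD libraries, against 26.8, 23.8 and 26.4 TPM in those of H2AS40-KD. SPHK2 thus had the sign of DBP, with no overlap of groups, a log2 fold change of 0.31 (limma adjusted p = 0.222) and its lowest value in the same library. CLOCK shares 25495 bases with TMEM165, a Golgi membrane protein gene that was the more abundant, at 69.2 ± 1.33 and 61.9 ± 1.76 TPM (SD, n = 3 each, limma adjusted p = 0.146), again with the sign of its partner. RefSeq long noncoding genes on the other strand share 10878 bases with PER2, 17982 with PER3, 5504 with BMAL1 and 1045 with CLOCK, were not matched in the TPM table and were not analysed here. The part of shared reads in the value of any clock gene was not tested.

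**Figure D4:**
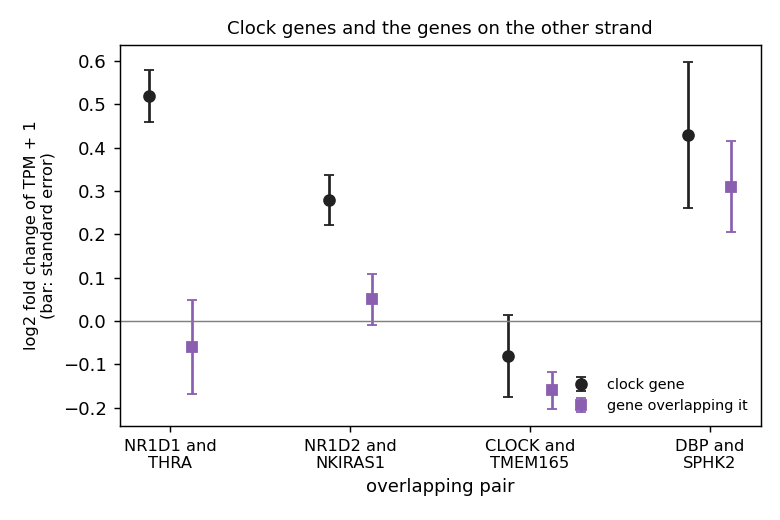
Log2 fold change of TPM + 1 (vertical axis, with standard error) for 4 clock genes (black circles) and the gene that overlaps each on the other strand (purple squares). NR1D1 is at 0.52 beside THRA at -0.06, whereas DBP at 0.43 stands beside SPHK2 at 0.31.

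The profiles most like that of NR1D1 were sought among 11096 genes averaging 5 TPM or more, by the root mean square difference of centred log2(TPM + 1) over the 6 libraries. The nearest were FOS (0.0460), the amino acid transporter gene SLC43A1 (0.0499), the zinc finger genes ZNF57 (0.0520) and ZNF296 (0.0556), and KLF10 (0.0571). NR1D2 came at place 137 (0.144) and BMAL1 at place 303 (0.166), while PER2 came at place 9446 (0.360). For BMAL1 the nearest were HSPBAP1 (0.0467), AVL9 (0.0499), PGM2 (0.0503), EDC3 (0.0538) and the histone gene H2BC4 (0.0556), with NR1D2 the nearest clock gene at place 83 (0.0978). None of the 10 clock genes followed here was among the 5 nearest to either. With 5 places among 11096 genes this was likely beforehand, and nothing is read from it. FOS and KLF10, both near NR1D1, belong to the resetting and output lists above, which were chosen with earlier results known. The distance keeps the difference between groups, so genes with like log2 fold changes come out near. These were 0.44 for FOS, 0.58 for KLF10 and 0.52 for NR1D1, and nothing is read from their nearness.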

How the data were processed

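The members and gene lists were chosen with earlier results of these data known. The authors deposited TPM per gene, each library summing to 1000000. Which tool estimated them was not given in the sources used here. Per the submitters' processing notes, hg38 was the build and Bowtie2 and MACS2 were used, their roles not being named. Of 37247 Ensembl identifiers 34436 matched a symbol by unversioned identifier; 1 list gene, HMOX2, had no match and was not tested. Genes reaching 1 TPM in 3 or more libraries were kept (14160), all 10 members among them. Log2(TPM + 1) values, which understate changes of low genes, were fitted with limma 3.58.1 in R 4.3.3 (lmFit, then eBayes with trend on intensity). Tests were two-sided and p-values were adjusted by Benjamini-Hochberg over tested genes, at a threshold of 0.05. The fit was checked on simulated data. P-values measure the spread between libraries, which may be technical. At most 0.113% of genes had identical TPM in any pair of libraries. Genes named were the members, the called gene or that with the smallest p in each list, overlapping genes and nearest profiles; others were named after their values were seen, and some list genes are counted but not reported by name here. Coordinates are from RefSeq, GRCh38.p14, the promoter windows included. Groups came from sample titles. Alternatives covered pseudocounts of 0.1 and 0.5, quantile and median-of-ratios scaling, no filter or a filter of 5 TPM, removal of mitochondrially encoded genes before scaling, no intensity trend, a replicate term, removal of a gene-span trend, and leaving out each library.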

Additional observations from a re-analysis of the deposited data

How the results depend on the processing

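No clock gene changed sign under any of the 16 alternatives. The call of NR1D1 held in 9 of them, with log2 fold changes from 0.46 to 0.56 over all 16, and of the 10 genes 0 were called without an intensity trend and 0 with the replicate block. Leaving out each library gave 0 to 1 called members: the call was kept without Control-KD replicate 3 (0.56) and lost without Control-KD replicates 1 (0.54) and 2 (0.46) and without H2AS40-KD replicates 1 (0.50), 2 (0.53) and 3 (0.52). With fewer samples the test also has less power. Without H2AS40-KD replicate 3 the CLOCK fold change was -0.01, and without Control-KD replicate 1 it was -0.03. For THRA the sign turned without Control-KD replicate 1 (0.03), and the other leave-one-out values ran from -0.11 to -0.03; the cause was not tested. Of the other clock, output and resetting genes listed, 4 were called higher with the 5 TPM filter (EGR1, KLF10 and FOS among them), 1 without an intensity trend (KLF10), 0 with the replicate block and 1 to 2 without 1 library, KLF10 in each. All genes called were 178, and 98 with no filter, 10 without a trend, 0 with the replicate block and 5 to 159 without 1 library. The correlations of same-numbered deviations were -0.0642 to -0.00154. The labels do not say whether same-numbered libraries were paired, and so few values cannot settle it. With the gene-span trend removed 53 genes were higher and 128 lower, against 73 and 105, and NR1D1 was still called. TPM keep no depth, so counting error could not be set against any of these differences.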
